A study of Drosophila melanogaster with 4 samples.

Results

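3LHet is a sequence of FlyBase release 5, the genome build named in the headers of the deposited files, that holds heterochromatin of the left arm of chromosome 3 outside the assembled arm 3L of Drosophila melanogaster. It was cut into 5 kb windows from base 1 to its header length of 2555491 bp, and every window was a member whether or not it was covered. This gave 512 windows, the last of them shorter, out of 27949 windows of the same kind over the 13 sequences that carry clusters. A window was described by the percent of its bases inside a cluster, which is a stretch of significant enrichment called by the authors, and by the deposited score of the covering clusters, weighted by bases where several met in a window.

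The libraries came from nuclei of wild-type Oregon-R larvae at the third instar, a strain with no introduced allele or treatment. Chromatin was crosslinked with formaldehyde, sheared by sonication and immunoprecipitated (ChIP) with an antibody against trimethylated lysine 9 of histone H3 (H3K9me3), which the labels call a new lot. There were 4 samples, of which 2 were ChIP libraries and 2 were inputs, and each input served as background for the ChIP library of its number. The labels name no tissue, so the values average over the cell types of whole larvae, and they do not say whether the replicates came from separate animals. A standard deviation therefore measures the spread between these 2 libraries, which may be technical.

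H3K9me3 is the histone mark of constitutive heterochromatin. In Drosophila it is written by methyltransferases that include Su(var)3-9 and eggless, and it is bound by heterochromatin protein HP1a, the product of Su(var)205, which can recruit more methyltransferase and so help the mark to spread along a chromosome. Pericentromeric heterochromatin is rich in transposable elements and satellite repeats and holds scattered genes. The release 5 scaffolds named Het gather mapped heterochromatic sequence of this kind that had not been joined to the assembled arms.

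3 lists were used, 1 per ChIP library and 1 that the authors called for the replicate set, named the combined list here. Over the series they held 3258, 3287 and 4060 clusters. Read numbers are not given, which leaves the depth behind a cluster unknown and allows no counting interval. The scale of the score is not stated either, and scores were therefore ranked and compared within a list. With 1 group of 2 libraries, an exact two-sided sign-flip permutation test cannot give a p below 0.5, so none was run and the values are descriptions.

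H3K9me3 clusters covered nearly the whole of 3LHet. Replicate 1 covered 87.2% of it, replicate 2 covered 89.1% and the combined list 92.1%, with a mean of 88.2% ± 1.36 over the replicates (SD, n = 2). In bases, clusters filled 2.23 Mb, 2.28 Mb and 2.35 Mb of the 2.56 Mb. Both ends of the sequence lay inside or next to clusters. Cover began at base 13 for replicate 1, base 12 for replicate 2 and base 6 for the combined list. At the right end replicate 1 was covered to the last base and replicate 2 stopped 270 bp short of it. The last combined cluster ran 554 bp past the sequence end as deposited and was clipped there.

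Single windows were mostly covered throughout. At least 50% of the window was covered in 455 windows of replicate 1 and in 466 of replicate 2. In both replicates at once this held for 453 windows (88.5%), where the background over all windows of the series was 15.2% (15.6% for replicate 1 and 17.0% for replicate 2). Clusters filled 345 windows (67.4%) completely in both replicates, against 8.53% over the series. At the other end, 23 windows (4.49%) had no covered base in either replicate, against 73.8% over the series. In the combined list 479 windows were at least 50% covered and 17 had no covered base. Those shares stand beside backgrounds of 19.9% and 69.8%.

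The libraries were then compared window by window. A total of 2 windows (0.391%) passed 50% in replicate 1 alone and 13 (2.54%) in replicate 2 alone, with backgrounds of 0.390% and 1.78%, so these shares were near or above those of the series. Another 44 windows (8.59%) passed in neither replicate, against 82.6% over the series. Covered percent was the same in 368 windows, of which 345 were full and 23 empty. It was higher in replicate 2 in 100 windows and higher in replicate 1 in 44. By base, 2210 kb lay in clusters of both replicates, 17.8 kb in replicate 1 only, 67.1 kb in replicate 2 only and 260.2 kb in neither. Bases shared by the replicates made up 0.963 of the bases that at least 1 of them covered, a ratio known as the Jaccard index.

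**Figure D1:**
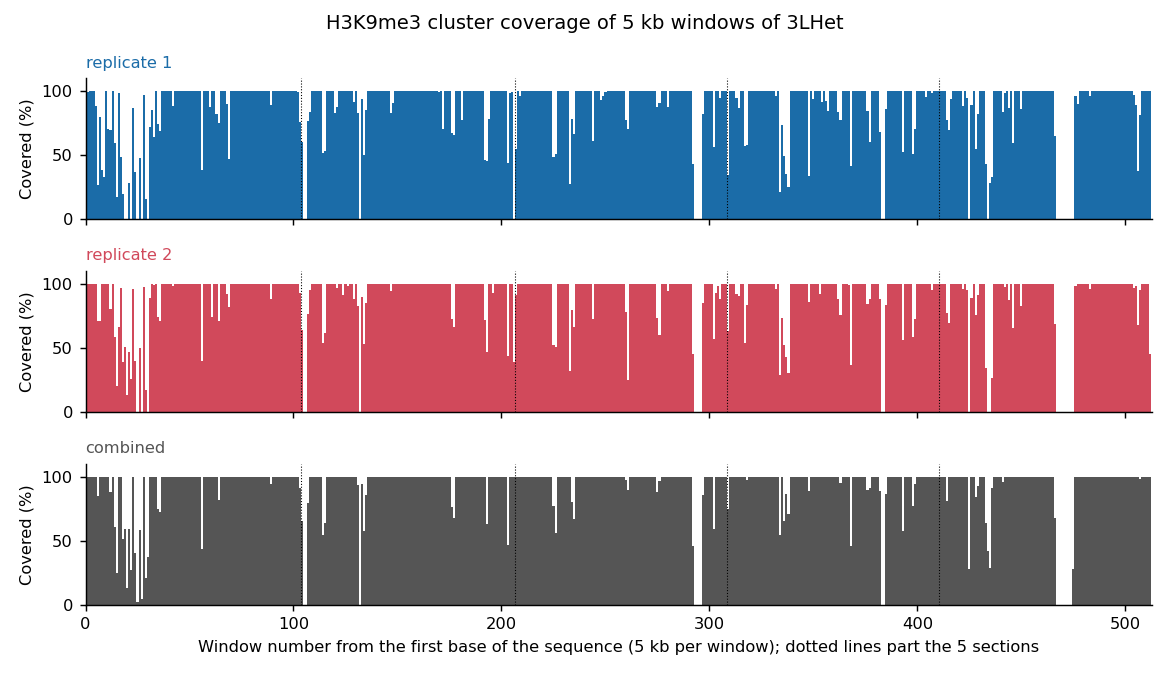
Percent of each 5 kb window of 3LHet covered by H3K9me3 clusters (vertical axis, 0 to 100%) against window number from the first base (horizontal axis), for replicate 1, replicate 2 and the combined list. Most of the 512 windows reach 100% in all panels, and the widest empty bands fall at nearly the same window numbers in each. Some narrower bands are empty in replicate 1 and partly covered in replicate 2. Others are empty in both replicates and partly covered in the combined list.

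The profile was followed along 3LHet in 5 sections of 102 or 103 windows. How the numbering of 3LHet is oriented towards the centromere is not given in the sources used here. Coverage was lower in the outer sections than between them. The first section, from base 1 to 515000, had 82.6% of its bases covered in replicate 1 and 87.5% in replicate 2, a mean of 85.0% ± 3.52 (SD, n = 2). The last section, from 2050001 to 2555491, was covered at 83.4% and 84.2%, with a mean of 83.8% ± 0.572. Means in the 3 sections between them were 90.9% ± 1.37, 90.7% ± 0.145 and 90.2% ± 1.48. Within each replicate each of these 3 sections exceeded both outer sections.

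The outer sections lost their coverage in different ways. The last section had 11 of the 23 windows that were empty in both replicates, and the first section had 3. The first section had the most clusters, 30 in replicate 1 and 23 in replicate 2, where the others held 16 to 21 and 13 to 18. Low coverage thus coincided with a finer division into clusters in the first section and with long empty stretches in the last.

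The first section also held the longest run of windows that were not filled in both replicates. This run was singled out after the values were seen. It spanned 20 windows from 65001 to 165000, of which replicate 1 covered 38.9%, replicate 2 covered 50.4% and the combined list 58.0%. In it 14 clusters of replicate 1 had a median width of 2540.5 bp and 14 clusters of replicate 2 had a median width of 3050 bp, counting only the part inside the run. Over all of 3LHet the median cluster width was 11420 bp and 16998 bp. The rule for the run shuts out places where wide clusters of both replicates fill a window. Its low cover and narrow clusters were thus partly fixed in advance. The score of the covered bases in the run was 2.43 in replicate 1 and 2.44 in replicate 2, beside means of 2.41 and 2.57 for all covered bases of 3LHet. The run was thus patchy in cover, while its covered bases differed in score from the sequence mean by less than 0.301, the SD of the score over covered bases in either list.

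The longest runs of filled windows each lay inside 1 cluster in every list, nearly by definition, since such a run holds no uncovered base. The longest had 21 windows, from 740001 to 845000, followed by 20 windows from 2415001 to 2515000 and 19 windows from 345001 to 440000. The scores of these runs were 2.38, 2.33 and 2.65 in replicate 1, and 2.58, 2.41 and 2.84 in replicate 2. The 3 runs had the same order by score in both replicate lists. In the combined list they scored 2.40, 2.42 and 2.74, with the first below the next.

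A large part of the uncovered sequence on 3LHet, though not most of it, lay in a few stretches. The replicates shared 77 stretches with no cover in either, 260.2 kb or 10.2% of the sequence, with a median length of 1729 bp. The 5 longest took up 104.8 kb, which is 40.3% of the shared uncovered bases. In all 3 lists together 202.0 kb (7.90% of the sequence) stayed without cover.

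The longest stretch ran from 2328428 to 2375081, 46.7 kb in the last section. It was bounded on the left within 163 bp and on the right within 111 bp in the 2 replicates. The combined list left 45.2 kb of it uncovered, from 2328406 to 2373600. It covered 3.17% of the replicates' stretch, at the right end, where its edge lay farther in than theirs.

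The next stretch, 23.4 kb from 1457282 to 1480729, had edges that differed by 119 bp and 168 bp between the replicates, and the combined list covered 0.0469% of it. The third, 13.0 kb from 518188 to 531174, had left edges 169 bp apart and right edges 1 bp apart. The fourth, 11.3 kb from 1909421 to 1920701, had left edges 1026 bp apart and right edges 114 bp apart. In the combined list 1.86% of the third and 0.106% of the fourth were covered. As each list drew it, the fourth measured 12.3 kb in replicate 1, 11.4 kb in replicate 2 and 11.3 kb in the combined list. These 4 stretches were empty or nearly so in every list.

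The fifth was of another kind. It measured 10.4 kb from 2162168 to 2172565, its right edges lay 6102 bp apart, and the combined list covered 30.9% of it. Uncovered sequence there reached 16.9 kb in replicate 2, 10.4 kb in replicate 1 and 3.43 kb in the combined list, so its extent changed with the list. The sequence content of the 5 stretches was not analysed, since no sequence of release 5 was used here. Whether they hold assembly gaps, which are runs of unknown bases, was therefore not looked up.

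The edges of all clusters were compared between the replicates as well. The start of a replicate 1 cluster lay a median of 330 bp from the nearest start in replicate 2, and the end a median of 381 bp from the nearest end. Of the 105 starts, 31 had a start in replicate 2 within 100 bp and 40 had none within 1 kb. From the 86 clusters of replicate 2 the median distances were 164.5 bp for starts and 216 bp for ends. On 3RHet the medians for starts and ends were 468 bp and 320 bp from replicate 1, and 199 bp and 187 bp from replicate 2. On 2RHet they were 270.5 bp and 247.5 bp from replicate 1, and 201 bp and 179.5 bp from replicate 2. By median distance, ends on 3LHet lay farther apart than on these scaffolds from both lists. The share of ends with none within 1 kb gave another order. From replicate 1 it was 34.3% on 3LHet, 40.4% on 3RHet and 33.6% on 2RHet. From replicate 2 it was lowest on 3LHet, 19.8%, and highest on 3RHet, 27.2%. The ranking of ends thus depended on the measure. For starts, the order by median changed with the list measured from.

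3LHet was divided into 105 clusters by replicate 1, 86 by replicate 2 and 58 by the combined list. Their median widths were 11420 bp, 16998 bp and 26366.5 bp. Sorted by width, clusters of at least 44.0 kb held 50% of the covered bases in replicate 1. The corresponding widths were 43.8 kb for replicate 2 and 80.6 kb for the combined list. Each replicate had 13 clusters of 50 kb or more and the combined list had 16, and these held 44.3%, 47.7% and 68.9% of the covered bases. Clusters under 5 kb numbered 30, 17 and 14, and held 3.58%, 2.20% and 1.22%.

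The widest clusters lay at like places in the replicates. The widest of replicate 1 ran from 735454 to 848748 (113.3 kb, score 2.38) and lay wholly inside the widest of replicate 2, from 733773 to 878644 (144.9 kb, score 2.58). The next in replicate 1 ran from 2410826 to 2516564 (105.7 kb) and in replicate 2 from 2410735 to 2516522 (105.8 kb), so that their edges were under 100 bp apart. The third in replicate 1 ran from 342630 to 441317 (98.7 kb) and in replicate 2 from 340892 to 441317 (100.4 kb), with the same last base. The fourth ran from 1040433 to 1122444 (82.0 kb) and from 1031963 to 1122606 (90.6 kb). The fifth differed, from 2246362 to 2328264 (81.9 kb) in replicate 1 and from 1216814 to 1298900 (82.1 kb) in replicate 2. The former was 99.8% covered in replicate 2 and the latter 98.4% covered in replicate 1.

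The combined list drew neighbouring replicate clusters into longer ones. Its widest cluster on 3LHet, from 670703 to 878804 (208.1 kb, score 2.40), had 98.4% of its bases covered in replicate 1 and 99.8% in replicate 2. The following 4 measured 157.6 kb from 2373601 to 2531194, 127.4 kb from 1171647 to 1299091, 124.5 kb from 2203896 to 2328405 and 124.4 kb from 317112 to 441472. Each replicate covered these 4 at between 95.7% and 98.8%. Of the 58 combined clusters, 27 contained or touched several clusters of replicate 1 and 23 several of replicate 2, and 22 did so for both. A single cluster of each replicate stood under 19 of them.

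Breaks between replicate clusters inside combined clusters were short. Of the 105 uncovered stretches of replicate 1, 56 lay wholly inside a combined cluster, with a median of 543.5 bp. Of the 87 stretches of replicate 2, 39 did so, with a median of 290 bp. Among the 56 breaks of replicate 1, 33 were covered from end to end in replicate 2. Among the 39 breaks of replicate 2, 12 were covered from end to end in replicate 1. Because the combined list was made from these very libraries, it adds no independent evidence.

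Of the 58 combined clusters, 47 overlapped both replicates, 2 replicate 1 alone, 2 replicate 2 alone and 7 neither. The median width was 31105 bp for the 47, and the 7 over neither were 1100 bp to 2440 bp wide. Of the covered bases of the combined list, 93.9% were covered in both replicates. Another 58.2 kb of combined cover lay in neither replicate, and 594 bp of replicate cover lay outside the combined list.

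**Figure D2:**
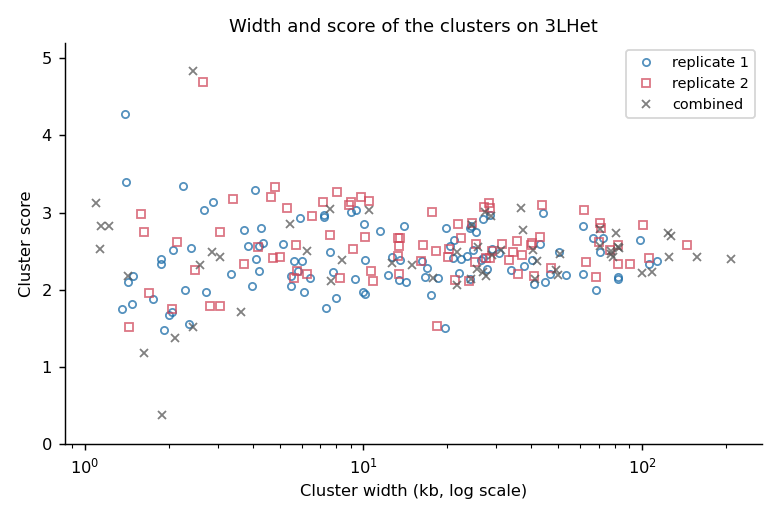
Score of each cluster on 3LHet (vertical axis, deposited score) against its width (horizontal axis, kb, log scale), with 1 point per cluster for replicate 1 (105), replicate 2 (86) and the combined list (58). Narrow clusters spread from 0.372 to 4.83, while clusters of 50 kb or more lie between 1.99 and 3.04.

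Scores on 3LHet stood in the upper part of each list. The list medians of the score were 1.75 for replicate 1, 1.43 for replicate 2 and 0.587 for the combined list. On 3LHet 100 of 105 clusters of replicate 1 (95.2%), 86 of 86 of replicate 2 and 57 of 58 of the combined list (98.3%) were at or above it, where the background is 50.0% by construction. The median 3LHet cluster scored 2.38, 2.57 and 2.46 in these lists.

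Wide clusters, of 50 kb or more, had scores closer together than narrow ones, under 5 kb. Clusters of 50 kb or more scored between 1.99 and 2.83 in replicate 1, between 2.17 and 3.04 in replicate 2 and between 2.22 and 2.78 when combined. Clusters under 5 kb scored between 1.48 and 4.27 in replicate 1, between 1.52 and 4.69 in replicate 2 and between 0.372 and 4.83 in the combined list. The medians of the narrow clusters, 2.36, 2.55 and 2.38, differed little from those of the wide ones, 2.38, 2.58 and 2.48. The spread of the narrow clusters thus reached to both sides of the wide ones. Clusters of 5 to 50 kb scored from 1.50 to 3.04 in replicate 1 (62 clusters) and from 1.53 to 3.26 in replicate 2 (56 clusters). In the combined list 28 such clusters scored from 2.06 to 3.06. In the replicates their lowest scores came near those of the narrow clusters, and their highest did not.

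The highest score of each list was not matched at the same place in the other lists. The highest-scoring combined cluster, 2.44 kb from 1679309 to 1681748 (score 4.83), had no covered base in either replicate. The next, 1.10 kb from 2162538 to 2163637 (score 3.12), had none either. The highest in replicate 2, 2.66 kb from 1028879 to 1031537 (score 4.69), was uncovered in replicate 1, and the combined list held it inside a cluster with a score of 2.23. The highest in replicate 1, 1.39 kb from 441774 to 443165 (score 4.27), was 91.2% covered in replicate 2 by a cluster that scored 2.87. Those single-replicate examples were chosen after their values were seen.

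The third to the fifth highest combined clusters were wider and present in both replicates. They ran from 531036 to 567712 (36.7 kb, score 3.06), from 660284 to 667877 (7.59 kb, score 3.05) and from 57583 to 68038 (10.5 kb, score 3.03). Base-weighted scores over these places were 2.96, 2.95 and 2.86 in replicate 1 and 3.16, 3.13 and 3.15 in replicate 2. Each of the 6 values lay above the upper quartile of window scores in its list, 2.65 in replicate 1 and 2.80 in replicate 2. The places were picked by their score in a list made from the same libraries. High replicate scores there were therefore likely in advance and are no separate support.

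The lowest combined cluster, 1.88 kb from 1989087 to 1990970, scored 0.372 and had no cover in either replicate. The next were 1.63 kb from 88894 to 90527 (score 1.19), 2.11 kb from 2167071 to 2169181 (score 1.38), 2.45 kb from 90683 to 93128 (score 1.52) and 3.64 kb from 99336 to 102976 (score 1.71). Replicate 2 covered 88.2% and 84.2% of the pair near 90 kb, and replicate 1 covered none of it. The last was covered at 39.1% and 83.2%. Both replicates left the 2.11 kb cluster uncovered. The low-scoring combined clusters on 3LHet thus all measured under 5 kb, and 3 of the 5 lay in the patchy run of the first section.

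Window scores rose and fell together in the replicates. Across the 484 windows with cover in both, Spearman's correlation was 0.852 and Pearson's 0.853. This is a description across windows that share clusters and libraries, with no p-value. Window scores in replicate 1 ran from 1.49 to 3.40 with a median of 2.38, and in replicate 2 from 1.53 to 3.61 with a median of 2.58. Replicate 2 had the higher number in 443 of the 484 windows and replicate 1 in 41, with a median difference of 0.160. Since the scale is not stated, this does not show more enrichment in replicate 2. The median over all clusters of the series was in the other order, 1.75 in replicate 1 and 1.43 in replicate 2.

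**Figure D3:**
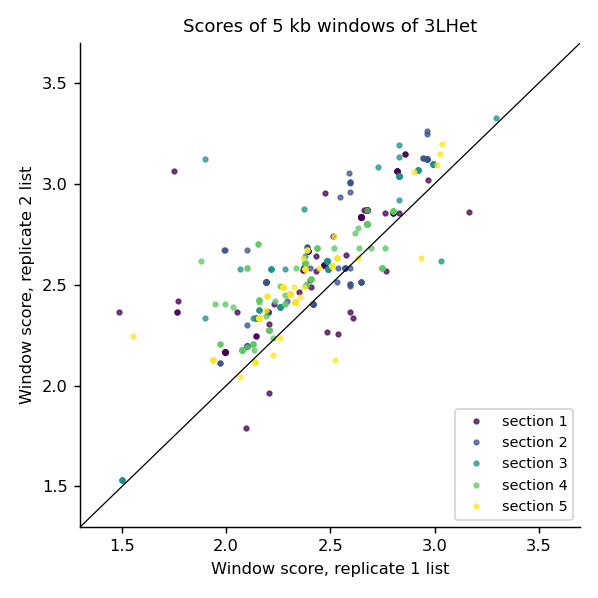
Score of each 5 kb window of 3LHet in the replicate 2 list (vertical axis) against its score in the replicate 1 list (horizontal axis), coloured by section from first to last, with the line of equal scores. Most of the 484 points lie above the line and follow it, and the points at the lower left near 1.5 belong to the low-scoring domain of section 3.

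The lowest scores of clusters over 5 kb fell at the same place in both replicates. A cluster of 19.5 kb from 1375454 to 1395000 scored 1.50 in replicate 1, and a cluster of 18.4 kb from 1376978 to 1395370 scored 1.53 in replicate 2. Its neighbours scored far more. On the left a cluster of 70.7 kb scored 2.49 in replicate 1 and its counterpart of 69.9 kb scored 2.62 in replicate 2. On the right clusters of 61.6 kb and 61.7 kb scored 2.83 and 3.04.

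On the right side of this domain the score changed across a short gap between neighbouring clusters. Every cluster carries a single score, so the width of such a step is set by the gap alone. It does not show how sharply enrichment changed. Replicate 1 ended the low-scoring cluster at 1395000 and began the next at 1395610, and replicate 2 ended it at 1395370 and began the next at 1395627. The combined list joined the low domain with its right-hand neighbour in 1 cluster, from 1375159 to 1457279, with a score of 2.55. The contrast therefore does not appear in the combined list. The 23.4 kb uncovered stretch begins at the far end of the high-scoring neighbour. This domain was chosen after its values were seen.

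**Figure D4:**
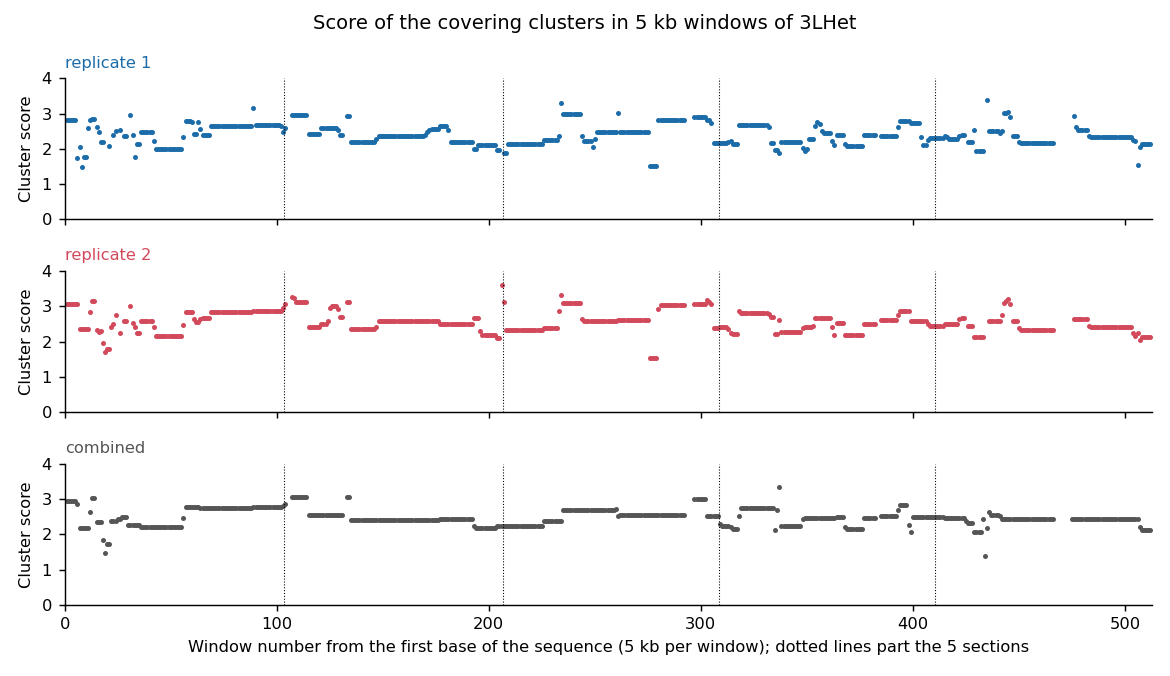
Base-weighted score of the covering clusters in each 5 kb window of 3LHet (vertical axis) against window number (horizontal axis), for the 2 replicate lists and the combined list, with no point where a window has no cover. Long flat runs are single wide clusters, and the short step near 1.5 in section 3 appears in both replicates and is absent from the combined list.

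By section, the mean score of covered bases was highest in the first section, 2.48 in replicate 1 and 2.65 in replicate 2, and lowest in the last, 2.33 and 2.45. The first section thus had low coverage with the highest scores, and the last had both low. Sections 2 to 4 scored 2.39, 2.47 and 2.38 in replicate 1 and 2.58, 2.65 and 2.52 in replicate 2. Sections 1 and 3 stood within 0.02 of each other in both replicates, so their order says little.

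The replicates differed most at the left end. The run of adjacent windows with the largest difference spanned 8 windows from 80001 to 120000, where replicate 1 covered 11010 bp and replicate 2 covered 20446 bp. The next runs, from 35001 to 45000 and from 1015001 to 1035000, had 6.42 kb and 3.86 kb more cover in replicate 2. The fourth and the fifth, from 150001 to 165000 and from 20001 to 30000, had 3.37 kb and 2.78 kb more. All 5 runs were covered more in replicate 2, and 4 of them lay in the first section. Replicate 2 covered more in 4 of the 5 sections, and replicate 1 in section 3, by 90.8% against 90.6%.

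3LHet was set beside the sequences most like it. 3RHet, the scaffold of the right arm of the same chromosome, has nearly the same length, 2.52 Mb. Replicate 1 covered 81.7% of it and replicate 2 covered 83.6%. The difference, 3LHet minus 3RHet, was 5.50 percentage points for replicate 1, 5.49 for replicate 2 and 5.45 for the combined list, with a mean of 5.49 ± 0.00747 (SD, n = 2). Coverage of 2RHet was 75.6% ± 0.956, and 3LHet exceeded it by 12.6 points ± 0.409. 3LHet exceeded 2LHet by 15.9 points ± 0.420. Each difference was larger than its spread between the replicates. Coverage was taken over the full header length, and assembly gaps on these scaffolds were not looked up. The spread between the libraries would not reflect such gaps. No test of these differences was run.

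The assembled arm of the same chromosome gave a further comparison. The right-end 2 Mb of 3L, the end of that arm towards the centromere, was covered at 72.6% ± 0.809, and 3LHet exceeded it by 15.6 points ± 0.555. This 2 Mb was a fixed length that was not set at a heterochromatin border. Whether all of it is heterochromatin was not checked, so the difference may not be one between heterochromatic sequences. In it 80 of 400 windows (20.0%) had no covered base in either replicate. Chromosome 4 alone among the sequences compared was covered more, at 92.7% ± 2.54, and 3LHet minus chromosome 4 was -3.75 points in replicate 1 and -5.41 points in replicate 2.

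Scores gave another order. The base-weighted mean score of 3LHet was 2.41 for replicate 1, 2.57 for replicate 2 and 2.48 for the combined list. It was higher than that of 3RHet by 0.171, 0.199 and 0.173 in these lists. Against 2RHet it was higher by 0.0898, 0.0839 and 0.0709, and against the right end of 3L by 0.0759, 0.0951 and 0.0890. Chromosome 4, which was covered more, scored lower than 3LHet by 0.493, 0.553 and 0.548 in the lists in that order. Among the 8 other parts compared, U, which gathers unplaced sequence, had a higher mean score than 3LHet in replicate 1 (2.46) and a lower one in replicate 2 (2.50) and the combined list (2.39). The other 7 scored lower than 3LHet in each list. The scores of the covered bases varied within 3LHet with an SD of 0.301 in both replicates, more than it differed from the other autosomal scaffolds.

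Among 3LHet, 3RHet and 2RHet, the share of empty windows was lowest on 3LHet. No base was covered in either replicate in 23 of 512 windows of 3LHet (4.49%), 47 of 504 of 3RHet (9.33%) and 105 of 658 of 2RHet (16.0%). Windows filled in both replicates made up 67.4%, 62.3% and 56.7%. Coverage and empty windows did not go together over all scaffolds, since XHet (7.32% empty) and YHet (5.71% empty) were covered less than 3RHet and had a smaller share of empty windows. The Jaccard index of the replicates was 0.963 on 3LHet, 0.956 on 3RHet, 0.962 on 2RHet and 0.970 on 2LHet. At the right end of 3L it was 0.972. It was lower on XHet (0.812), YHet (0.753) and U (0.793). Lists that cover more of a sequence share more of their bases even when placed independently. XHet, YHet and U were covered less than 3LHet, so their lower index is not a plain measure of poorer agreement. By this index the replicate lists covered 3LHet about as alike as the other large autosomal scaffolds.

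**Figure D5:**
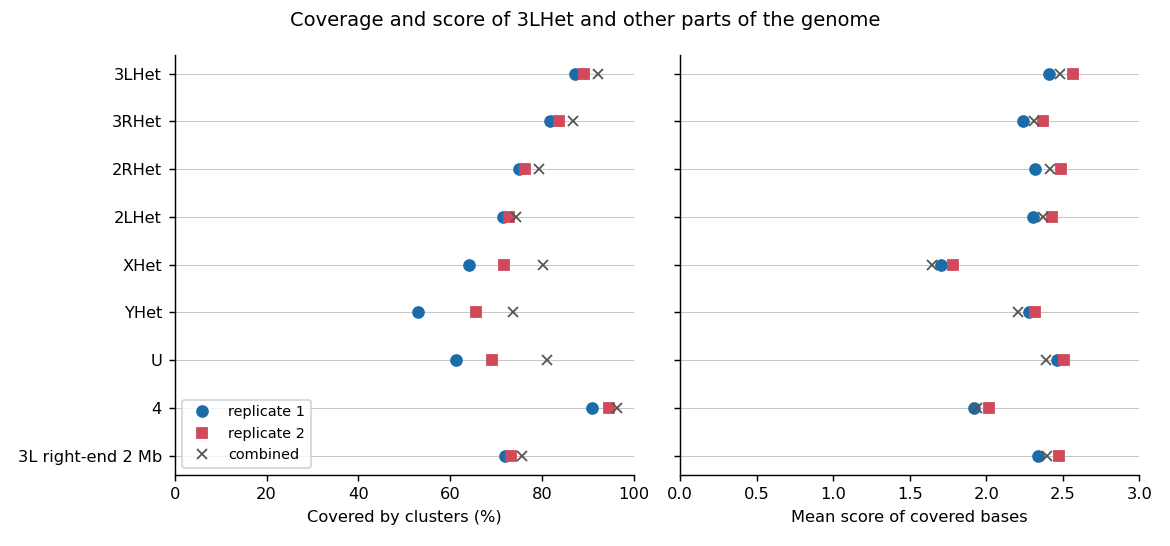
Percent of bases covered by H3K9me3 clusters (left, 0 to 100%) and base-weighted mean score of the covered bases (right) for 3LHet, the other heterochromatic scaffolds, U, chromosome 4 and the right-end 2 Mb of 3L, with 1 point per list. 3LHet lies to the right of the other scaffolds in coverage, U alone passes it in score in replicate 1 (2.46 against 2.41), and chromosome 4 is covered more at a lower score.

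Genes under the clusters of 3LHet were not analysed, because the available gene table follows release 6 and its positions cannot be set against those of release 5. For the same reason no sequence of the clusters or of the empty stretches is shown.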

How the data were processed

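ChIP-seq libraries for H3K9me3 and inputs were made from larval nuclei, per the labels' protocols. The authors deposited lists of enriched clusters with a score per cluster whose scale is not stated. Bowtie 0.12.7 is named in the submitters' processing notes without its role. Per the file headers, coordinates follow FlyBase release 5. Not given in the sources used here are the caller of the clusters, its threshold, how reads from repeats were treated and how the combined list was made. Reads from repeated sequence can decide whether heterochromatin is covered, so coverage depends on that treatment.

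Groups came from the sample titles. Clusters past a sequence end were clipped, the 3 regions of depletion in the combined list (0 of them on 3LHet) were left out, and Uextra, which holds no cluster, stayed out of totals. Coverage was counted by base. Named regions were the 5 longest stretches without cover in both replicates, the 5 widest clusters per list, the 5 highest- and 5 lowest-scoring combined clusters, and the 5 runs of windows with the largest replicate difference. Other regions are named as chosen later. Windows, lists and rules were chosen with earlier results of these data known. The code was tested on simulated data, and window coverage, scores, stretches and overlap were recovered in 20 of 20 lists. Python 3.11.15, numpy 2.4.6, scipy 1.17.1 and matplotlib 3.10.9 were used. Alternatives covered score and width limits, joining of clusters, window size and position, the coverage threshold, the list, and leaving out each replicate.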

Additional observations from a re-analysis of the deposited data

How the results depend on the processing

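Of 49 alternatives over 8 results, 35 kept their value and 0 reversed a direction. A kept value lay within the replicate SD, within 1.5 times a share of windows, or was equal to 2 decimals where no SD existed. Leaving out a replicate gave 10 of the 35, and the other alternatives gave 25. A reversal was possible only for the differences to 3RHet in coverage and in score. Without 1 replicate, coverage ranged from 87.2% to 89.1% and the score difference to 3RHet from 0.171 to 0.199, which 2 replicates fix in advance. The other 14 moved as follows. The combined list gave a coverage of 92.1% and a difference to 3RHet of 5.45 points. Clusters at or above their own list's median score gave a difference of 7.06 points, a Jaccard index of 0.952 and a share of combined bases in both replicates of 92.9%. Clusters of at least 2 kb gave a difference of 5.38 points and a share of 93.8%. Joining clusters under 1 kb apart gave 5.57 points, 0.969 and 94.5%. The replicate SD of the 3RHet difference, 0.00747, is small, so slight shifts exceed it. Windows of 1 kb brought empty windows to 8.29%, since short gaps then fill a window. The Spearman correlation was 0.868 in 1 kb windows, 0.864 in 10 kb windows and 0.882 in windows at least 50% covered in both replicates. For the other changes the cause was not tested. Unknown depth limits the reading of the uncovered stretches. No paired analysis was possible because the inputs had no list here and ChIP was the only group measured.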
